A study of Mus musculus with 4 samples.

Results

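The cells described here are the Gfra1-positive cells of a single-cell RNA sequencing experiment on mouse testes, and the question is how their transcripts differed between Plzf lu/lu and Plzf +/+ mice. The members were selected on their measured Gfra1 count: a cell was taken as Gfra1-positive when at least 1 unique molecular identifier (UMI, a tag that counts single captured mRNA molecules) of Gfra1 was found in it. Cells with 10 or more UMIs summed over the spermatid genes Prm1, Prm2, Tnp1, Tnp2, Oaz3 and Smcp, or with 3 or more UMIs of Clu, an abundant Sertoli cell transcript, were left out. This kept 622 of the 1249 cells in the series, 504 from Plzf +/+ and 118 from Plzf lu/lu mice. Every mouse carried the Eomes-iCreERt2-tdTomato knock-in allele on a B6N background and was 4 wk old, and the cells were sorted from dissociated testes by tdTOMATO fluorescence, which is driven from the Eomes locus. The mutants were homozygous for luxoid (lu), an allele of Plzf, whose symbol in the tables is Zbtb16, and Plzf +/+ mice served as the controls. Plzf +/+ cells filled plates 1 and 2, Plzf lu/lu cells filled plate 3, and on plate 4 the genotypes took separate wells. The UMIs of the Gfra1-positive cells were summed per library, which gave 3 Plzf +/+ libraries of 193, 173 and 138 cells (plates 1, 2 and 4) and 2 Plzf lu/lu libraries of 103 and 15 cells (plates 3 and 4). Values per library are listed in that order throughout.

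Spermatogonial stem cells sit on the basement membrane of the seminiferous tubule and either renew themselves or give rise to chains of cells that differentiate. GFRA1 is the receptor that binds glial cell line-derived neurotrophic factor (GDNF), which Sertoli cells secrete, and it signals through the tyrosine kinase RET to the RAS-ERK and PI3K-AKT pathways. The most primitive, single spermatogonia carry it. PLZF is a zinc finger repressor of undifferentiated spermatogonia, and germ cells are lost with age in mice that lack it. The sort used here reads the Eomes locus, so the level of Eomes itself is not independent of the gate.

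The 5 libraries held 1353196, 1265867, 961133, 1058035 and 124859 UMIs in the Gfra1-positive cells. A single UMI in the plate 4 library of Plzf lu/lu is thus worth 8.12 CPM. For single genes, CPM is the gene's UMIs divided by the library's UMIs of tested genes, scaled by TMM and to 1000000. Sums over marker lists and the level of Clu are per 1000000 UMIs of all genes, without TMM. A gene with no UMI in the plate 4 library of Plzf lu/lu could be at up to 24.3 CPM (3 UMIs), against limits of 2.28 to 3.25 CPM in the other 4 libraries. The median depth was 6289 UMIs per Plzf +/+ and 8664 UMIs per Plzf lu/lu cell, and mitochondrial genes took 5.30% and 4.27% of the UMIs. The 8 germ cell markers were present in all 5 libraries at a summed level of 2437 to 3252 CPM, as the germ cell label of the samples has it. Among the 14 Sertoli cell markers Amh and Fshr were at 0 and the list summed to 528, 501 and 483 CPM in Plzf +/+ and 413 and 625 in Plzf lu/lu, most of it from Ctsl, a protease that many cell types express. Without Ctsl the sums were 48.0, 79.0 and 91.6 CPM against 73.7 and 344 CPM, so the plate 4 library of Plzf lu/lu stood apart. What the removal rule left of Clu was at 5.17, 8.69 and 9.36 CPM against 25.5 and 16.02 CPM. It was higher in both Plzf lu/lu libraries, on 27 and 2 UMIs of Clu. The plate 4 library of Plzf lu/lu held 1 cell with 18054 UMIs, 4 of Gfra1 and 1 of Clu. That cell, of 15, held 41 of the library's 43 UMIs of Sertoli cell markers other than Ctsl. Without the 11 cells that held 5 or more such UMIs 318 genes were lower and 306 higher, and without the whole plate 4 library of Plzf lu/lu 291 and 373. A T and NK cell list stood apart in 1 library, with 8, 11 and 8 UMIs in Plzf +/+ against 89 and 0 in Plzf lu/lu, and 77 of the 89 lay in 1 cell of plate 3 with 24187 UMIs and 3 Gfra1 UMIs. Without that cell 303 genes were lower and 302 higher, near the counts with it. Of 376 cell barcodes 358 occurred in more than 1 library, because each plate received the same set, and none was shared by the libraries of plate 4. The labels name no animals, so the spread between libraries may not hold the spread between mice, and genotype cannot be told apart from plate except on plate 4. On plate 4 alone, with 1 library per genotype and no test, the log2 fold change lay within 1 of the value over all libraries for 49 of the 66 named genes that were called and farther from it for 17, several of which had no UMI in the Plzf lu/lu library.

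The level of Gfra1 chose the cells and is a description only. Among cells left after the removal, 65.4%, 67.3% and 58.7% were Gfra1-positive in Plzf +/+ and 39.8% and 45.5% in Plzf lu/lu. Of the 622 cells 214 had 1 Gfra1 UMI, 152 had 2 and the highest had 13, with 2.60 UMIs per Plzf +/+ and 2.80 per Plzf lu/lu cell. At the removal limit, 21 kept cells had 5 to 9 spermatid UMIs and 8 removed cells had 10 to 14, while 6 kept cells had 2 Clu UMIs and 4 removed cells had 3. The 78 removed cells with a Gfra1 UMI were 62 Plzf +/+ and 16 Plzf lu/lu cells.

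Across the transcriptome of Gfra1-positive cells, 309 genes were lower and 306 higher in Plzf lu/lu among 10901 genes tested by edgeR's quasi-likelihood test at a Benjamini-Hochberg adjusted p under 0.05. That is 2.83% of the genes tested in the lower and 2.81% in the higher direction, the background against which each gene group is read. The lower genes were led by Malat1, Barx1 and Lhx1 and the higher genes by the pseudogene Rps15a-ps8, Egr4 and Coro1a. For 609 of the 615 called genes the values of the 3 Plzf +/+ and the 2 Plzf lu/lu libraries did not overlap, which was also so for 38.5% of all genes tested. The counts rested on the large plate 3 library, since 26 genes were lower and 42 higher when the 15 cells of plate 4 stood alone for Plzf lu/lu (a fit in which the spread comes from the Plzf +/+ libraries alone and the single Plzf lu/lu library is assumed to vary like them), and on the Plzf +/+ library of plate 2, without which 131 were lower and 145 higher. They also rested on the removal of spermatid-rich cells. With the 78 removed cells put back 2 genes were lower and 9 higher, and the biological coefficient of variation (the fitted spread between libraries of a genotype) was 0.273 in place of 0.140.

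**Figure D1:**
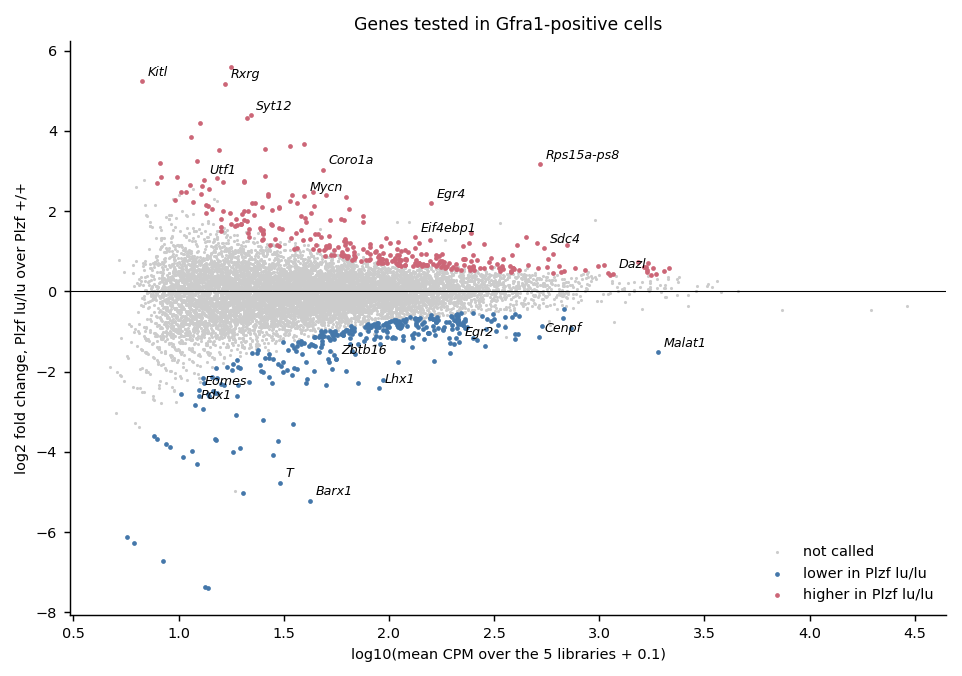
Each point is 1 of the 10901 genes tested in Gfra1-positive cells, with log10 of its mean CPM over the 5 libraries plus 0.1 on the horizontal axis and its log2 fold change, Plzf lu/lu over Plzf +/+, on the vertical axis. Blue points are the 309 genes called lower and red points the 306 called higher, and the labelled genes run from Barx1 and T at the bottom to Kitl and Rxrg near the top.

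Zbtb16, the gene that carries the luxoid mutation (chr9:48651797-48836225, GRCm38.p6), was measured at 85.2, 53.6 and 98.6 CPM in Plzf +/+ and at 25.4 and 16.2 CPM in Plzf lu/lu. Both Plzf lu/lu libraries lay below every Plzf +/+ library, and the log2 fold change was -1.70 ± 0.34 (SE; edgeR, adjusted p = 0.00551). A Zbtb16 UMI was found in 188 of 504 Plzf +/+ cells (37.3%; exact 95% interval 33.1 to 41.7) and in 22 of 118 Plzf lu/lu cells (18.6%; 12.1 to 26.9). Wells can also catch free RNA, so shares are set beside those in the 60 cells removed for Clu, with a median of 6523 UMIs, where Zbtb16 was found in 16.7%. These cells are no clean measure of free RNA, since 25 of them were also rich in spermatid transcripts and 61.7% held the germ cell transcript Dazl. They also pool both genotypes, so a share in them can itself hold a difference between genotypes. Among cells with no Gfra1 UMI, which were shallower, Zbtb16 was found in 29.0% in Plzf +/+ and 7.47% in Plzf lu/lu. In summed UMIs, fewer cells with a transcript and less transcript per cell cannot be told apart, which is why shares of cells are given for the leading genes. All intervals and limits cover counting error only.

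The identity genes of spermatogonial stem cells divided into a group that fell and a group whose libraries overlapped. Of the 8 identity genes with enough UMIs for the test, 4 were lower in Plzf lu/lu (Zbtb16, T, Eomes and Pdx1) and none was higher, and the median log2 fold change was -0.95 against -0.04 over all genes tested. The list is the study's own, assessed there in these same cells, so it is not independent evidence of a direction.

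T (brachyury), a T-box factor of the primitive streak and of germ cells (chr17:8434423-8442496), stood at 58.5, 59.1 and 32.5 CPM in Plzf +/+ and at 1.96 and 0 CPM in Plzf lu/lu. That is 182 UMIs against 2. As a share of all UMIs the Plzf +/+ level was 30.1 times the Plzf lu/lu level (counting interval 8.20 to 250.1; edgeR, adjusted p = 8.67e-05). A T UMI was present in 113 of 504 Plzf +/+ cells (22.4%; 18.9 to 26.3) and in 2 of 118 Plzf lu/lu cells (1.69%; 0.206 to 5.99). None of the 60 cells removed for Clu had one, which allows a share of up to 5.0%. Plzf lu/lu cells were the deeper ones, and with every cell thinned to 2000 UMIs T was found in 30 of 281 Plzf +/+ and 0 of 53 Plzf lu/lu cells, a count that allows up to 5.66%. In Plzf +/+ the share with T was 3.53% of cells with no Gfra1 UMI, 12.4% of cells with 1 and 27.5% of cells with 2 or more. In Plzf lu/lu it was 1.15%, 2.22% and 1.37% in that order. The share with T was thus highest in the Plzf +/+ cells with most Gfra1, whose median depth (6960 UMIs) was also the highest in that genotype, and near 0 in all 3 groups of Plzf lu/lu cells.

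Eomes, the T-box gene whose locus drives the sorted reporter (chr9:118478186-118486132), was at 27.4, 16.6 and 14.1 CPM in Plzf +/+ and at 3.92 and 0 CPM in Plzf lu/lu. The log2 fold change was -2.47 ± 0.68 (edgeR, adjusted p = 0.0353), a call that held under 11 of 20 alternative settings. Eomes UMIs were found in 62 of 504 (12.3%; 9.56 to 15.5) and 3 of 118 cells (2.54%; 0.527 to 7.25), so most sorted cells of either genotype held none, and none of the 60 cells removed for Clu had one. Pdx1, a homeobox factor of pancreas and duodenum, was at 19.0, 23.7 and 14.1 against 2.94 and 0 CPM. Its 68 and 3 UMIs give a ratio of 7.49 (2.46 to 37.2; edgeR, adjusted p = 0.0205), and the shares of cells were 11.1% and 2.54%, with 3.33% in cells removed for Clu. Of the 113 Plzf +/+ cells with T, 26 also held Eomes, 20 held Pdx1 and 39 held Zbtb16. Over all 504 Plzf +/+ cells, 188 held Zbtb16. The 2 Plzf lu/lu cells with T held none of these 3 genes, and are too few to compare.

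The other tested identity genes overlapped between genotypes. Id4, an inhibitor of DNA binding that marks stem cells, stood at 113, 161 and 112 CPM against 116 and 97.4 CPM (log2 fold change -0.20 ± 0.21; edgeR, adjusted p = 0.672). Bmi1, a Polycomb subunit, was at 105, 113 and 122 against 107 and 81.2 CPM (-0.15 ± 0.19; adjusted p = 0.745). Lin28a, an RNA-binding protein that blocks let-7 maturation, was at 47.1, 41.8 and 62.9 against 55.8 and 81.2 CPM (0.28 ± 0.27; adjusted p = 0.64). For these 3 genes the fold changes were small beside the 4 genes that fell. Nanos2, an RNA-binding factor of self-renewal, was at 10.6, 22.1 and 16.3 against 22.5 and 8.12 CPM (0.30 ± 0.46; adjusted p = 0.797), and the plate 4 library of Plzf lu/lu held 1 UMI of it. Neurog3 (5 and 0 UMIs) and Pax7 (10 and 6 UMIs) had too few UMIs for the test.

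**Figure D2:**
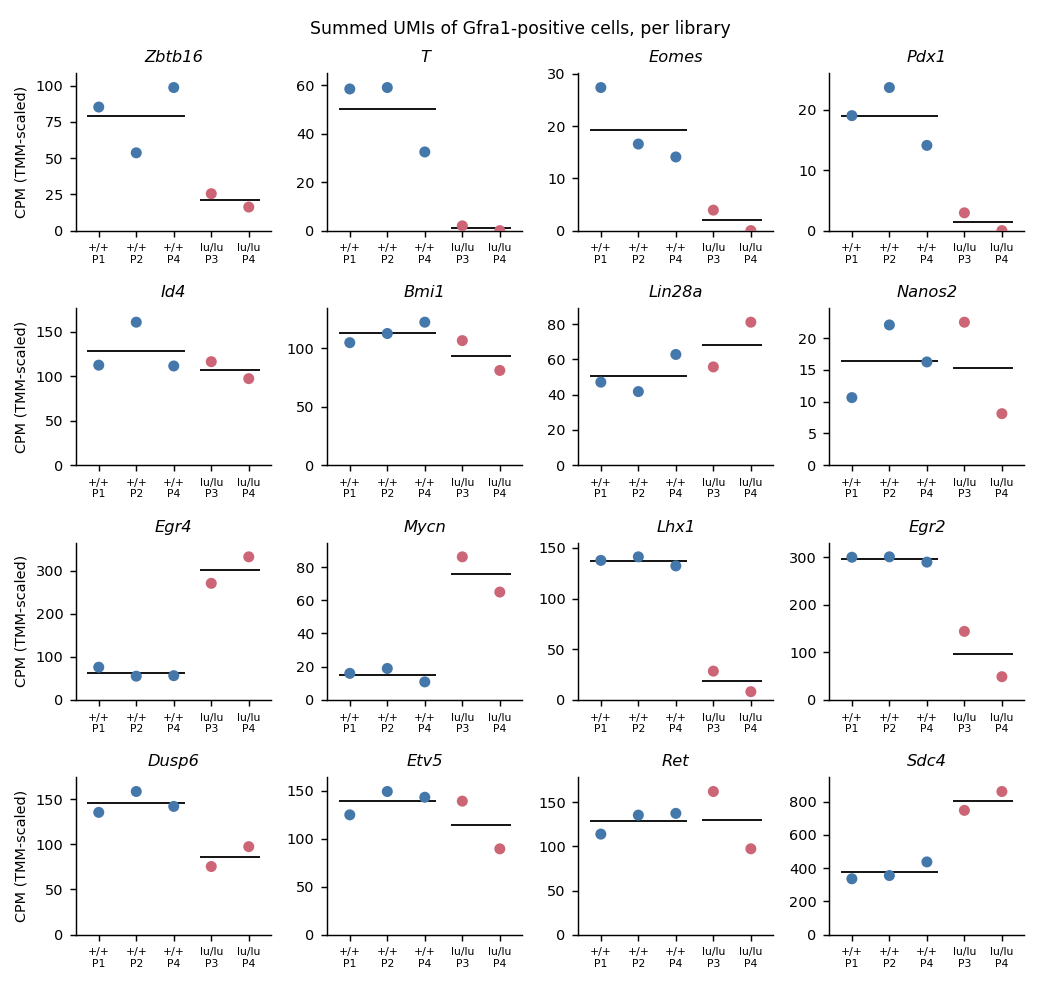
Each panel gives 1 gene, with the 3 Plzf +/+ libraries in blue, the 2 Plzf lu/lu libraries in red, a black line at each genotype's mean and CPM (scaled by TMM) on a vertical axis that starts at 0. The genotypes are apart for Zbtb16, T, Eomes, Pdx1, Egr4, Mycn, Lhx1, Egr2, Dusp6 and Sdc4, and overlap for Id4, Bmi1, Lin28a, Nanos2, Etv5 and Ret.

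Along the GDNF pathway, genes of the receptors and the kinase relay did not pass the test, while 5 of its transcriptional response genes did, in opposite directions. Of 24 genes for GDNF and FGF receptors and their adaptors 11 were tested and none was called, with a median log2 fold change of -0.34. Ret, the GFRA1 co-receptor, was at 114, 136 and 138 CPM in Plzf +/+ and at 162 and 97.4 CPM in Plzf lu/lu (0.20 ± 0.19; edgeR, adjusted p = 0.624). The smallest p-values belonged to the adaptor phosphatase Ptpn11 (-0.87 ± 0.35, adjusted p = 0.157) and to Fgfr1 (-1.16 ± 0.48, adjusted p = 0.171). Of the 22 genes of the RAS-ERK and PI3K-AKT relay 20 were tested, again without a call, with a median of -0.20. Mapk3, which encodes ERK1, was 0.60 higher (log2; edgeR, adjusted p = 0.166). Not passing the test does not show that these genes were equal. In simulated data with the same depth and 1 spread for all genes, 31.7% of genes changed by a log2 fold of 1 were recovered.

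In the list of 35 response genes (ETS factors, immediate early genes, Sprouty and DUSP feedback regulators and known GDNF targets), 27 were tested, 3 fell and 2 rose. The median log2 fold change was -0.08, with 14 members negative and 13 positive. Lhx1, a LIM homeobox gene induced by GDNF (chr11:84517975-84525534), was at 138, 141 and 132 CPM in Plzf +/+ and at 28.4 and 8.12 CPM in Plzf lu/lu. Its log2 fold change was -2.41 ± 0.26 (edgeR, adjusted p = 1.15e-05), and the share of cells with a UMI was 43.3% (38.9 to 47.7) against 13.6% (7.95 to 21.1), with 8.33% in cells removed for Clu. Egr2, an immediate early zinc finger factor, was at 299.6, 300.4 and 289 CPM against 144 and 48.7 CPM (-1.26 ± 0.21; adjusted p = 0.00206). The 3 Plzf +/+ libraries lay close together and both Plzf lu/lu libraries far below, the lower of them with 6 UMIs. Dusp6, the phosphatase that inactivates ERK and a common readout of ERK activity, was at 135, 158 and 142 against 75.4 and 97.4 CPM (-0.87 ± 0.20; adjusted p = 0.0122).

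Egr4, another immediate early zinc finger factor (chr6:85511121-85513589), moved the other way. It stood at 76.0, 55.2 and 56.4 CPM in Plzf +/+ and at 271 and 333 CPM in Plzf lu/lu (2.19 ± 0.18; edgeR, adjusted p = 7.23e-07), and it was called under all 22 alternative settings. Egr4 UMIs were found in 27.8% (23.9 to 31.9) of Plzf +/+ and 77.1% (68.5 to 84.3) of Plzf lu/lu cells, with 21.7% in cells removed for Clu. Mycn, a MYC family factor that promotes spermatogonial growth, was at 15.97, 18.9 and 10.8 CPM against 86.1 and 64.9 CPM (2.37 ± 0.30; adjusted p = 6.83e-05), in 8.53% and 44.9% of cells. Both Plzf lu/lu libraries were above every Plzf +/+ library for the 2 genes. Among members not called, the ETS factors Etv4 (0.76 ± 0.24; adjusted p = 0.0727) and Etv5 (-0.11 ± 0.19; adjusted p = 0.892), Egr1 (0.59 ± 0.17; adjusted p = 0.0503) and Bcl6b (0.40 ± 0.35; adjusted p = 0.6) lay between these extremes.

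**Figure D3:**
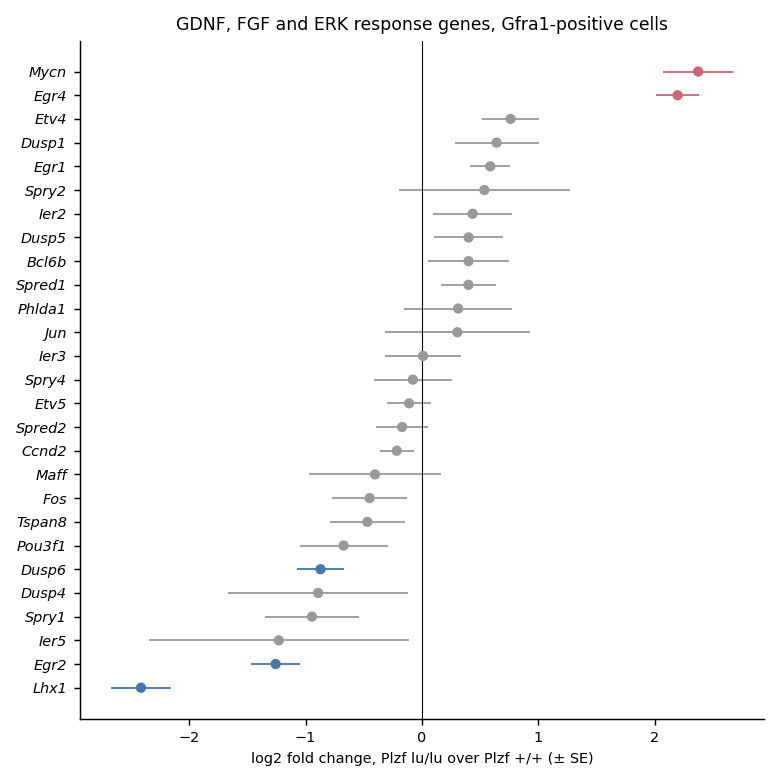
The 27 tested response genes are ordered by log2 fold change, Plzf lu/lu over Plzf +/+, on the horizontal axis, with bars of ± 1 SE from the fit. Lhx1, Egr2 and Dusp6 (blue) were called lower, Mycn and Egr4 (red) higher, and the other members (gray) were not called.

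The promoters of Egr2 and Egr4 are shown because these 2 members of a single immediate early family moved in opposite directions in the same cells. Each run is the window from 250 bases before to 50 after the start of the RefSeq transcript, 5′ to 3′, at chr10:67537619-67537918 on the plus strand for Egr2 and at chr6:85513540-85513839 on the minus strand for Egr4 (GRCm38.p6). Capitals mark a CArG box, the element bound by serum response factor, at position -72 from the Egr2 start.
Egr2: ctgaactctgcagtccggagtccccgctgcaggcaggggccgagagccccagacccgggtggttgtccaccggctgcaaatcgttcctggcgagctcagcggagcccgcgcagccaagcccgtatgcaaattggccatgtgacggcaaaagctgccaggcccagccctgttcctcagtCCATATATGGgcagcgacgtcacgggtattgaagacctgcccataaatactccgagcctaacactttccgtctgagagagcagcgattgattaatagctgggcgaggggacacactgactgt
Egr4: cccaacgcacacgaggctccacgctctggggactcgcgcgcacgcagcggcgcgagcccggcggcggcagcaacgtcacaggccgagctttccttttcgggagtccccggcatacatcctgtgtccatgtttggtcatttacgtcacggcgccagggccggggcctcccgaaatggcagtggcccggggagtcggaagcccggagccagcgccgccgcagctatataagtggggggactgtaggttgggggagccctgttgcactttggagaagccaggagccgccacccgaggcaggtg
Both strands were searched for the CArG box, TGACGTCA, TATAAA and GGGCGG, none of which overlapped another match in these windows. The Egr2 window held the CArG box alone, and 4 of the 5 Egr2 windows of the table held one. No match to any of the 4 motifs was found in the Egr4 window. Over the 32851 windows of the table the shares with a match were 1.63%, 1.79%, 13.6% and 35.7% in that order.

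The leading genes in either direction were chosen for small p-values and libraries that do not overlap between genotypes, so that separation is no finding. In the lower direction, beside Lhx1, they included a nuclear noncoding RNA, a homeobox factor and a basement membrane protein. Malat1, a noncoding RNA retained in nuclear speckles, was at 2750, 2159 and 2781 CPM in Plzf +/+ and at 827 and 990.1 CPM in Plzf lu/lu (-1.52 ± 0.14; edgeR, adjusted p = 2.66e-06). Barx1, a homeobox factor of stomach and tooth mesenchyme (chr13:48663036-48666507), was at 74.5, 63.9 and 70.4 against 1.96 and 0 CPM. Its 244 and 2 UMIs give a ratio of 40.3 (11.0 to 335; adjusted p = 4.05e-06), and it was present in 30.4% of Plzf +/+ and 1.69% of Plzf lu/lu cells and in none of the 60 cells removed for Clu. Like T, Barx1 was found in 2 Plzf lu/lu cells, and 58 of the 113 Plzf +/+ cells with T also held it.

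Nid1, a basement membrane glycoprotein, was at 125, 151 and 143 CPM against 32.3 and 16.2 CPM (-2.21 ± 0.25). Eif4g3, a scaffold of translation initiation that spermatogenesis needs, was at 224, 230.2 and 234 against 71.4 and 56.8 CPM (-1.73 ± 0.19). Dync2h1, the motor of retrograde transport in cilia, was at 241, 279 and 272 against 90.0 and 97.4 CPM (-1.53 ± 0.18). These 3 had edgeR adjusted p-values of 1.55e-05, 1.21e-05 and 3.37e-05. The acetylcholine receptor subunit Chrna4 (-3.31 ± 0.44), the diacylglycerol kinase Dgkk (-3.73 ± 0.52), Mpped2 (-2.29 ± 0.28), the microtubule-associated Mtus1 (-1.996 ± 0.28), the liprin Ppfibp2 (-1.76 ± 0.22), 4932438A13Rik (-1.35 ± 0.19), Ankrd12 (-1.18 ± 0.16) and the kinetochore gene Cenpf (-1.14 ± 0.15) completed the group, with adjusted p-values of 4.73e-05 to 0.00015.

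In the higher direction the smallest p-value belonged to Rps15a-ps8, a gene named as a pseudogene of the ribosomal protein gene Rps15a (chr4:53791031-53791468). It stood at 109, 118 and 147 CPM in Plzf +/+ and at 1124 and 1112 CPM in Plzf lu/lu (3.17 ± 0.15; edgeR, adjusted p = 2.32e-11), and it was called under all 22 alternative settings. The parent Rps15a was at 2045, 2071 and 2366 against 2063 and 1842 CPM (-0.14 ± 0.12; adjusted p = 0.574). Near-identical copies can share reads, and how the counting split them is not given in the sources used here, so the level of the pseudogene is uncertain. Rps4x, an X-linked ribosomal protein gene, was at 292, 268 and 257 against 635 and 787 CPM (1.34 ± 0.14; adjusted p = 1.13e-05). Gm12751, a predicted gene, had 0, 2 and 1 UMIs against 54 and 4, a ratio of 58.5 (19.1 to 292; adjusted p = 1.38e-05), and was found in 0.595% and 34.7% of cells beside 33.3% of cells removed for Clu.

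Several of the other leading genes had few UMIs in Plzf +/+ cells. Coro1a, an actin regulator known from leukocytes, was at 12.9, 10.3 and 15.2 CPM in Plzf +/+ and at 107 and 97.4 CPM in Plzf lu/lu (3.03 ± 0.28; edgeR, adjusted p = 2.66e-06), and in 7.94% (5.73 to 10.7) and 49.2% (39.8 to 58.5) of cells. In cells removed for Clu it was 16.7%. The cell rich in T and NK cell transcripts held 4 of the 121 Coro1a UMIs of Plzf lu/lu, and 55 of the 58 Plzf lu/lu cells with Coro1a had no UMI of a T or NK cell marker. Krt18, a keratin of simple epithelia, was at 3.04, 10.3 and 6.5 against 92.0 and 56.8 CPM (3.63 ± 0.38; adjusted p = 1.13e-05). Syt12, a synaptotagmin, was at 2.28, 3.15 and 2.17 against 61.7 and 40.6 CPM (4.39 ± 0.45; adjusted p = 9.21e-06).

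Ifitm2, an interferon-induced transmembrane protein, was at 2.28, 2.37 and 4.33 CPM against 71.4 and 24.3 CPM (4.32 ± 0.47; edgeR, adjusted p = 1.21e-05), with none of its 76 Plzf lu/lu UMIs in the cell rich in T and NK cell transcripts. Sgk1, a serum- and glucocorticoid-induced kinase, was at 18.2, 14.98 and 18.4 against 84.2 and 114 CPM (2.41 ± 0.28). Dgka, a diacylglycerol kinase, was at 30.4, 31.5 and 21.7 against 116 and 122 CPM (2.05 ± 0.24). The adjusted p-value was 3.01e-05 for both kinases. Sat1, which acetylates polyamines, was 1.72 ± 0.21 higher on the log2 scale, the glycolytic enzyme Pkm 1.21 ± 0.14, the 14-3-3 protein Ywhaq 1.15 ± 0.13 and 1700019B21Rik 2.35 ± 0.28, with adjusted p-values of 1.21e-05 to 4.91e-05. 1700019B21Rik was found in 14.7% of Plzf +/+ and 50.8% of Plzf lu/lu cells, and in 58.3% of cells removed for Clu, and the part of Sertoli cell RNA in it was not tested.

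Factors of undifferentiated germ cells that are not on the identity list rose in part. Of 25 such genes 22 were tested, 4 were higher and none was lower, with a median log2 fold change of 0.20. Utf1, a chromatin factor of stem and progenitor cells, had 3, 4 and 5 UMIs in Plzf +/+ and 23 and 4 UMIs in Plzf lu/lu (2.79 ± 0.63; edgeR, adjusted p = 0.0115), in 2.183% (1.09 to 3.87) and 16.9% (10.7 to 25.0) of cells. Rhox10, a homeobox gene of the stem cell lineage, was at 47.9, 29.2 and 33.6 against 72.4 and 89.3 CPM (1.03 ± 0.28; adjusted p = 0.0306). Sox3, an SRY-related factor of committed progenitors, was at 7.6, 14.2 and 6.5 against 28.4 and 48.7 CPM (1.75 ± 0.47; adjusted p = 0.0307). The call held under 11 of 21 alternative settings for Rhox10 and under 12 of 21 for Sox3. The germ cell RNA-binding protein Dazl was abundant in both genotypes, at 1006, 1061 and 986 against 1336 and 1445 CPM (0.44 ± 0.12; adjusted p = 0.03), a call that held under 9 of 22 alternative settings.

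Among 18 genes of the step to differentiating spermatogonia, 13 were tested, 3 were higher and none lower (median 0.13). They were Sox3, the retinoic acid receptor Rarg and Kitl, while Kit and Stra8 were not called. Rarg stood at 8.36, 4.73 and 5.42 CPM against 21.5 and 40.6 CPM (2.01 ± 0.55; edgeR, adjusted p = 0.0358), a call that held under 10 of 21 alternative settings. Kitl encodes the ligand of the KIT receptor, which Sertoli cells supply in the testis. Kitl had 0, 0 and 1 UMIs in Plzf +/+ against 16 and 2 UMIs in Plzf lu/lu, a ratio of 54.5 (8.60 to 2269.9; adjusted p = 0.00906). It was found in 11.9% (6.64 to 19.1) of Plzf lu/lu cells and in 20.0% of the cells removed for Clu, and Clu was also higher in both Plzf lu/lu libraries. The part of Sertoli cell RNA in the Plzf lu/lu share was not tested.

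Retinoid genes moved in both directions. Of 23 genes 12 were tested, 3 were higher and 1 lower, with a median of 0.27. Rxrg, a retinoid X receptor, had 2, 0 and 1 UMIs in Plzf +/+ against 32 and 6 in Plzf lu/lu, a ratio of 38.3 (12.2 to 194; edgeR, adjusted p = 0.000198), and was present in 0.595% and 21.2% (14.2 to 29.7) of cells beside 3.33% of cells removed for Clu. Aldh1a3, an enzyme that makes retinoic acid, was at 24.3, 22.1 and 16.3 against 2.94 and 8.12 CPM (-2.52 ± 0.63; adjusted p = 0.0216). The receptor transcript Rxrg was thus higher and the synthetic enzyme lower, each with libraries that did not overlap.

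The list of BMP, activin and ID genes had a negative log2 fold change in all 15 of its tested members, of 27 in all, with a median of -0.51, and 4 were called lower. Fst, which binds and neutralizes activin, was at 203, 202 and 189 CPM against 102 and 73.0 CPM (-1.04 ± 0.18; edgeR, adjusted p = 0.00174). Id3, a BMP target, was at 40.3, 33.1 and 26.01 against 7.83 and 0 CPM (-2.27 ± 0.50; adjusted p = 0.00936). Smad6, an inhibitor within the BMP pathway, was at 29.7, 28.4 and 28.2 against 8.81 and 0 CPM (-1.89 ± 0.48; adjusted p = 0.0242). The 4 genes that fell thus include inhibitors of the pathway as well as a receptor. That receptor, the activin receptor Acvr1b, had 55 UMIs in Plzf +/+ and 3 in Plzf lu/lu, a ratio of 6.06 (1.97 to 30.3; adjusted p = 0.0468), a call that held under 9 of 20 alternative settings.

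Mitotic genes were lower in part. Of 48 tested G2 and M phase genes 35 had a negative log2 fold change (median -0.24), 6 were called lower and none higher. Cenpf, a kinetochore protein, was at 712, 598 and 688 CPM against 316 and 268 CPM (-1.14 ± 0.15; edgeR, adjusted p = 9.73e-05), and the kinesin Cenpe at 505, 412 and 401 against 247 and 219 CPM (-0.88 ± 0.16; adjusted p = 0.00265). The other called genes were Kif20b (-0.89 ± 0.19), Mki67 (-1.06 ± 0.23), Top2a (-0.74 ± 0.18) and Nusap1 (-1.57 ± 0.39). The share of cells with a UMI went against the summed level for Mki67 (31.3% in Plzf +/+ and 35.6% in Plzf lu/lu) and Top2a (47.4% and 58.5%), in which the Plzf lu/lu cells were the deeper ones, so no order of cycling cells is read from these values. All 47 S phase genes were tested and 1, Casp8ap2, was lower (-0.65 ± 0.19; adjusted p = 0.048), a call that held under 7 of 22 alternative settings. Their median was 0.03.

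Among 28 regulators of the G1 phase 24 were tested, 3 were higher and 1 lower. Cyclin D genes moved apart, Ccnd1 at 122, 116 and 105 CPM against 50.9 and 56.8 CPM (-1.15 ± 0.22; edgeR, adjusted p = 0.00337) and Ccnd3 at 88.2, 92.3 and 92.1 against 149 and 179 CPM (0.78 ± 0.18; adjusted p = 0.013). Ccnd2 was not called (-0.22; adjusted p = 0.46). The kinase gene Cdk2 was at 47.9, 42.6 and 48.8 against 84.2 and 89.3 CPM (0.88 ± 0.23; adjusted p = 0.0281), a call that held under 13 of 22 alternative settings. Cdk6, the kinase partner of D cyclins, had 3, 2 and 3 UMIs against 16 and 2 (2.71 ± 0.77; adjusted p = 0.0419), in 1.59% and 11.0% of cells beside 10.0% of cells removed for Clu.

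In the mTORC1 list, a pathway that PLZF is known to restrain in spermatogonia, 17 of 20 genes were tested, 1 was higher and 1 lower (median -0.39). Eif4ebp1, the translation repressor that mTORC1 phosphorylates, was at 88.2, 82.8 and 81.3 CPM against 221 and 195 CPM (1.35 ± 0.17; edgeR, adjusted p = 4.91e-05), in 34.3% (30.2 to 38.7) and 75.4% (66.6 to 82.9) of cells beside 43.3% of cells removed for Clu. Tsc1, which keeps mTORC1 off, was at 69.2, 76.5 and 60.7 against 34.3 and 16.2 CPM (-1.13 ± 0.28; adjusted p = 0.0218). Of 18 surface proteins of spermatogonia 12 were tested and 1 was called. That gene, the syndecan Sdc4, was at 335, 355 and 437 against 747 and 860.3 CPM (1.08 ± 0.14; adjusted p = 0.000115). Of 22 cofactors and relatives of PLZF 16 were tested and the corepressor Ncor1 alone was called, at 278, 254 and 271 against 159.5 and 129.8 CPM (-0.81 ± 0.17; adjusted p = 0.00568).

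Of 27 genes of antigen presentation and interferon response 12 were tested. Of these 2 were higher, Ifitm2 and the immunoproteasome subunit Psmb10, and 1 was lower, so the members that moved did not share a direction, and the median was 0.40. Psmb10 stood at 96.6, 71.8 and 111 CPM against 216 and 203 CPM (1.21 ± 0.19; edgeR, adjusted p = 0.000548). No call was made among 18 tested p53 and apoptosis genes (median -0.08; smallest adjusted p-values 0.0568 for Sesn1 and 0.0691 for Casp9). The same was so for 15 WNT genes (median -0.07; Sfrp1 0.055, Ctnnb1 0.0578) and 10 genes of DNA methylation (median -0.17; Mbd2 0.0772, Uhrf1 0.136).

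Markers of other cell types gave few calls. Of the endothelial list Kdr was lower, with 63 UMIs in Plzf +/+ and 1 in Plzf lu/lu (ratio 20.8, 3.60 to 835; edgeR, adjusted p = 0.0167), and Egfl7, which also hosts a microRNA, was higher (1.44 ± 0.38; adjusted p = 0.0271), so the 2 tested members moved in opposite directions and the list summed to 27.1 to 45.1 CPM in Plzf +/+ and 49.1 and 56.1 in Plzf lu/lu. The 13 tested spermatocyte markers gave no call (median -0.26), nor did the 7 tested spermatid markers outside the removal rule (median 0.29). All 14 members of the spermatid list summed to 90.2, 367 and 415 CPM in Plzf +/+ and 263 and 280.3 in Plzf lu/lu, so the Plzf lu/lu sums lay within the range of Plzf +/+. The 6 spermatid genes of the removal rule took 0.00717% to 0.0196% of the UMIs in Plzf +/+ and 0.00945% and 0.0264% in Plzf lu/lu, with the plate 4 library of Plzf lu/lu the highest. The 5 tested Sertoli cell markers gave no call (median 0.53), and no marker of Leydig cells, peritubular cells, macrophages, T and NK cells or erythroid cells had enough UMIs for the test. The part of RNA from other cells in the results was not tested.

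The difference between genotypes ran with the genomic length of genes. The 9986 tested genes with a RefSeq length (91.6%) were divided into 8 equal groups by length. The median log2 fold change was 0.11 in the group of shortest genes, with a median length of 1.17 kb, and 0.15 in the next. From there it fell group by group over 0.07, -0.02, -0.06, -0.12 and -0.20 to -0.29 in that of longest genes, with a median of 147 kb. Among the longest genes 115 were called lower (9.21%) and 25 higher (2.00%), and among the shortest 8 were lower and 52 higher. Both Plzf lu/lu libraries had the lowest medians for the longest genes, -0.28 and -0.29 relative to the Plzf +/+ mean, against -0.01, -0.04 and 0.06 in the Plzf +/+ libraries. For the shortest genes the plate 3 library was at 0.19 and the plate 4 library at -0.16, so there the 2 Plzf lu/lu libraries disagreed. The median length was 76.8 kb for genes called lower and 10.4 kb for genes called higher, against 21.7 kb for all tested genes. With the trend on length taken out per library, an alternative added after the values were seen, 204 genes were lower and 301 higher. That fit held only the 9986 genes with a length, of which the main fit had called 567 in either direction. T, Barx1, Lhx1, Egr2 and Egr4 are themselves short (2469 to 8074 bases), and Zbtb16 spans 184429 bases. Many other leading lower genes lie in the group of longest genes. They are Dync2h1, Eif4g3, 4932438A13Rik, Mpped2, Dgkk, Ppfibp2, Mtus1 and Ankrd12 (113102 to 249757 bases). Malat1 (6983 bases), Chrna4 (21269), Cenpf (47502) and Nid1 (74674) are shorter than that group.

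**Figure D4:**
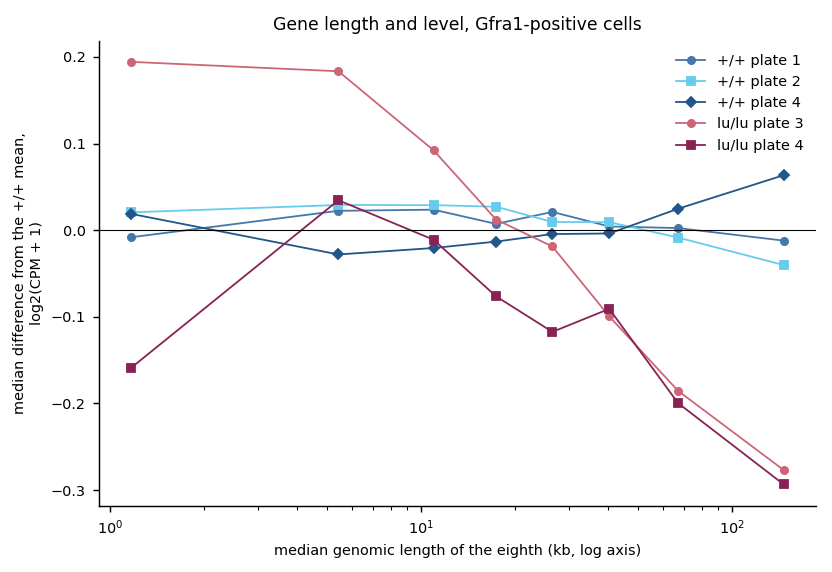
The horizontal axis (log scale) gives the median genomic length in kb of 8 equal groups of tested genes, and the vertical axis the median difference of each library from the Plzf +/+ mean on the log2(CPM + 1) scale. Each line is 1 library, and both Plzf lu/lu lines descend to -0.28 and -0.29 at the longest genes while the Plzf +/+ lines stay between -0.04 and 0.06 there.

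To ask which differences were particular to Gfra1-positive cells, the genotype effect was compared with that in the 457 Gfra1-negative cells of the same libraries (283 Plzf +/+ and 174 Plzf lu/lu). Of 10741 genes tested for a difference between the 2 effects 12 were called, 0.112% of the genes, 8 with a larger and 4 with a smaller log2 fold change in Gfra1-positive cells. Without cells rich in T and NK cell transcripts 3 were called with a larger and 4 with a smaller one. Several named genes did not pass edgeR's test of the difference. The adjusted p was 1 for T (difference -2.71 ± 1.64), Barx1 (-2.67 ± 1.13), Lhx1 (-1.08 ± 0.56), Zbtb16 (0.55 ± 0.53) and Rps15a-ps8 (-0.07 ± 0.17). It was 0.0505 for Malat1 (0.51 ± 0.12) and 0.0732 for Mycn (1.76 ± 0.45). Not passing does not show equal effects. In simulated data with 1 spread for all genes, this test recovered 85 of 190 changed genes. T had too few UMIs in Gfra1-negative cells to be tested there, and Lhx1 was not called in them (-1.27 ± 0.48; edgeR, adjusted p = 0.116). The length trend was as steep in Gfra1-negative cells, with medians of 0.15 for the shortest and -0.29 for the longest genes. Zbtb16 was lower in those cells too (-2.176 ± 0.39; adjusted p = 4.89e-05), as were Egr2 (-1.02 ± 0.28; adjusted p = 0.0178) and Barx1 (-2.46 ± 0.66; adjusted p = 0.0139), and Rps15a-ps8 was higher (3.28 ± 0.16; adjusted p = 4.30e-31).

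Sdc4 and Egr4 rose more in Gfra1-positive than in Gfra1-negative cells. Sdc4 encodes a heparan sulfate proteoglycan that binds growth factors at the cell surface. In Gfra1-negative cells it was at 423, 456 and 466.5 CPM in Plzf +/+ and at 501 and 383 CPM in Plzf lu/lu (0.05 ± 0.16), so the groups overlapped there, and the 2 effects differed by 1.01 ± 0.16 (edgeR, adjusted p = 1.86e-05). Egr4 was at 114.5, 106 and 81.8 CPM against 222.5 and 92.9 CPM in those cells (0.96 ± 0.22), and the effects differed by 1.25 ± 0.27 (adjusted p = 0.00877), a call that held under 5 of 12 alternative settings. The share of cells with Egr4 in Plzf lu/lu was 50.6% of cells with no Gfra1 UMI, 75.6% with 1 and 78.1% with 2 or more, at median depths of 4430, 6794 and 10564 UMIs. In Plzf +/+ it was 28.6%, 26.6% and 28.4% over the same groups, at median depths of 4643, 5086 and 6960 UMIs. The share with Lhx1 was higher in groups with more Gfra1 in both genotypes, 11.3%, 34.9% and 47.5% in Plzf +/+ against 5.17%, 8.89% and 16.4% in Plzf lu/lu.

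**Figure D5:**
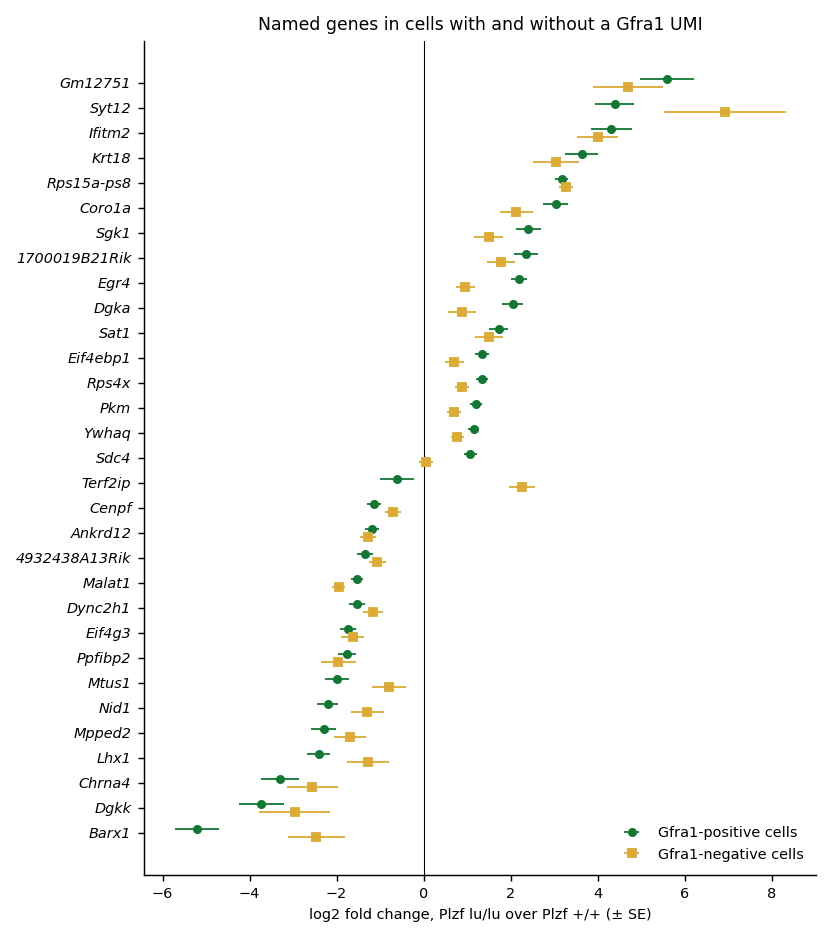
The horizontal axis gives the log2 fold change, Plzf lu/lu over Plzf +/+, with bars of ± 1 SE, for the leading genes in Gfra1-positive cells (green circles) and Gfra1-negative cells (yellow squares). Of the genes shown Sdc4 (1.08 and 0.05), Egr4 (2.19 and 0.96) and Terf2ip (-0.61 and 2.26) were called in the test of the difference, and all genes shown but Terf2ip lie on the same side of 0 in both.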

How the data were processed

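The assay was plate-based single-cell RNA sequencing of transcript 3′ ends in tdTOMATO-sorted testis cells of 4 wk old mice, on 4 plates. The authors deposited 1 table of raw UMI counts per genotype, by gene symbol and cell, without normalization. The submitters' processing notes name bcl2fastq 2.18.0.12, Picard 2.9.3, STAR 2.5.4a and GRCm38. The annotation, the UMI counter, its use of strand and the filter on cells are not given in the sources used here. Cell names carry plate and well, which gave the library. On plate 4 the genotype was that of the table, which leaves 5 Plzf +/+ cells outside their labelled wells, 2 of them Gfra1-positive. The tables hold 26041 gene symbols, and a gene missing from a table was taken as 0 there. No doublets were called.

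The UMIs of kept cells were summed per library, since cells of a library are not replicates, whereas the study's methods treated cells as such. Sums were filtered by filterByExpr, scaled by TMM and tested with glmQLFit and glmQLFTest (robust TRUE) in edgeR 4.0.16 (R 4.3.3) with genotype as the sole term. The call was an adjusted p (Benjamini-Hochberg) under 0.05 at any fold. Genes of the rule that chose the cells were given no test. The test of the difference between Gfra1-positive and Gfra1-negative cells used 10 sums, a library block, Gfra1 status and its product with genotype. An exact permutation test over the 10 splits of 3 against 2 libraries has 0.1 as its smallest p and was left out. Shares carry exact Clopper-Pearson 95% intervals. Thinning to 2000 UMIs used seed 1 and left out 14 of the 622 cells, and it was done before cells were called Gfra1-positive. In simulated data with 10511 genes, on which the procedure was tested, 31.7%, 83.1% and 90.6% of genes changed by log2 folds of 1, 2 and 3 were recovered, with 5 false calls among 137. The simulation gave all genes and libraries 1 spread (biological coefficient of variation 0.140). Its rates may thus be too favorable for genes or libraries that vary more. Replicate numbers were not taken to pair the libraries, since libraries that share a number lay on different plates. Correlations of their deviations (-0.040 and -0.078) cannot decide this. With 2 Plzf lu/lu libraries, the deviations from the genotype mean mirror each other.

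The members and gene lists were chosen with earlier results of these data known. The text names the 15 genes of smallest p in each direction whose libraries did not overlap (at most 5 predicted genes or pseudogenes a direction), all identity genes, up to 8 called members of each other list or its 2 of smallest p, and the 6 of smallest p in the test of the difference. A few genes that this rule names are not reported here. Gene positions, lengths and promoter windows are those of RefSeq on GRCm38.p6. Alternatives were other size factors, DESeq2 1.42.0, filters, left-out libraries, a replicate block, and other choices of cells.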

Additional observations from a re-analysis of the deposited data

Results flagged for a closer look

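In 6 genes the genotype effect differed most clearly between Gfra1-positive and Gfra1-negative cells by the interaction test. Terf2ip, a telomere protein, had a log2 fold change in Gfra1-positive cells below that in Gfra1-negative cells (difference -2.90 ± 0.43, SE; edgeR's quasi-likelihood test, adjusted p = 1.86e-05). Terf2ip was at 33.5, 35.5 and 36.8 CPM in Plzf +/+ and 27.4 and 0 CPM in Plzf lu/lu among Gfra1-positive cells, and at 40.0, 21.7 and 81.8 against 240 and 197 CPM among Gfra1-negative cells, where 61.7% of its Plzf lu/lu UMIs lay in 1 cell. Sdc4 had a difference of 1.01 (adjusted p = 1.86e-05) and was called under 8 of 12 alternative settings, and Terf2ip under 9 of 12.

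The cytotoxic lymphocyte genes Nkg7 (difference 7.004), Gzmb (12.74) and Ctsw (8.31) and the calcium-binding S100a4 (6.98) had edgeR adjusted p-values of 0.000112, 0.000532, 0.0023 and 0.000139 in that order. Of their UMIs in Gfra1-positive Plzf lu/lu cells, 13 of 13, 15 of 15, 14 of 16 and 30 of 31 lay in the single cell rich in T and NK cell transcripts. Once cells with 3 or more T and NK cell UMIs were left out, these 4 genes had too few UMIs for the test. The remaining called genes were AW112010 and Ly6c2, also concentrated in that cell (9 of 10 and 14 of 14 UMIs), Lars2 (-0.58), Egr4 (1.25), Gm12260 (-1.73) and Klhl7 (-2.55), which were chosen after their values were seen apart from Egr4. Differences of genes with no UMI in several libraries depend on the prior count of the fit.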

How the results depend on the processing

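The counts of genes depended most on which cells and libraries were used. Against 309 lower and 306 higher genes, DESeq2 gave 59 and 92, leaving out 1 library at a time 26 to 401 and 42 to 387, a replicate block, with numbers that do not pair the libraries, 122 and 115, all cells with a Gfra1 UMI 2 and 9, removal of Clu-rich cells alone 2 and 10, thinning to 2000 UMIs 40 and 37, leaving out cells with T or Eomes 144 and 182, and the length offset 204 lower genes. Other size factors, no filter, robust FALSE, 2 or more Gfra1 UMIs, no very deep cells, labelled wells alone, removal of spermatid-rich cells alone, stricter removal, no T and NK cell-rich cells and no Sertoli marker-rich cells kept both counts within 1.5 times. Of the 66 named genes called, 55 were no longer called with all cells kept. Among all called genes tested again, 613 of 614 kept their direction with all cells kept and 598 of 601 without the plate 3 library. These fits share libraries with the main fit, so kept directions are no separate evidence.

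The 12 genes with a difference between Gfra1-positive and Gfra1-negative cells became 0 with DESeq2 (85 at an unadjusted p under 0.05), 21 with no filter, 0 to 17 without 1 library (850 at an unadjusted p under 0.05 in the fit with 0 calls), 19 with 2 or more Gfra1 UMIs, 0 after thinning (256 at an unadjusted p under 0.05) and 7 without T and NK cell-rich cells. The mean share of Gfra1-positive cells over libraries, 63.8% in Plzf +/+ and 42.6% in Plzf lu/lu, was 42.6% and 25.99% with 2 UMIs as the minimum and 38.7% and 20.0% after thinning. Genes that were not called and turned direction were Id4 (-0.41 to 0.029 without 1 library), Nanos2 (-0.999 to 0.60 without 1 library, -0.0073 with stricter removal, -0.96 on plate 4 alone), Mbd2 (-1.51 to 0.13 without 1 library, 0.21 on plate 4 alone), Uhrf1 (-0.23 thinned), Ropn1 (-0.32 to 2.31 without 1 library, -1.24 with all cells, -0.22 without very deep cells, -0.18 without Sertoli marker-rich cells, -1.12 with only Clu-rich cells removed) and Odf1 (-1.53 with all cells, -1.43 with only Clu-rich cells removed). Why these values moved was not tested, apart from the smaller number of cells or libraries that some settings leave. The plate 4 library of Plzf lu/lu, with 15 cells, limits every comparison of weakly expressed genes. The length offset, the removal of 1 kind of cell alone, stricter removal and leaving out cells rich in T and NK cell or Sertoli cell markers were chosen after seeing the data.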

Other observations

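Gene families grouped by symbol after the values were seen are given as a description. Of 84 tested genes of cytosolic ribosomal proteins 8 were higher and none lower in Plzf lu/lu (median log2 fold change 0.17, 61 positive), among them Rps4x and Rpl22, the latter at 1507, 1275 and 1502 CPM in Plzf +/+ and 1924 and 2224 CPM in Plzf lu/lu. Of 92 nuclear genes of the respiratory chain and ATP synthase 7 were higher and none lower (median 0.23, 72 positive), led by Ndufc1 at 165, 196 and 220.0 against 392 and 284 CPM. The median was -0.04 over all genes tested. In the 2 groups of shortest genes it was 0.11 and 0.15, and 4.17% and 5.53% of their genes were called higher. The part of gene length in the values of these families was not tested. The 13 genes of the mitochondrial genome gave no call (median -0.06). Core histone genes had a negative log2 fold change in 31 of 34 cases (median -0.66), with Hist1h2aa (-1.34 ± 0.30) and Hist1h3b (-1.14 ± 0.30) called lower by edgeR. 

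Within 10 Mb of Zbtb16, 8 of 116 tested genes were called (6.90%), 5 of them lower, against 5.63% of all tested genes other than Zbtb16, which is a description without a test.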
